A study of Mus musculus with 4 samples.

Results

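The receptors through which hormones, nutrients and nerves act on islet cells were followed in islet RNA of mice on normal chow (NCD) or a high-fat diet (HFD). They are the glucagon-like peptide receptor Glp1r, the gastric inhibitory polypeptide receptor Gipr, the glucagon receptor Gcgr, the fatty acid receptor Ffar1, the lipid amide receptor Gpr119, the somatostatin receptor Sstr3, the alpha-adrenergic receptor Adra2a, the muscarinic receptor Chrm3, the prolactin receptor Prlr and the growth hormone receptor Ghr. These 10 genes were taken by symbol from the 55421 gene identifiers of the count tables. All 10 had enough counts to enter the test, which covered 21563 genes.

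The 4 libraries came from wild-type C57BL/6 mice, an inbred strain, and each diet had 2. Beyond strain, genotype and diet the labels name nothing that sets the mice apart, neither age nor length of feeding. They do not say whether the libraries are separate or pooled animals, so the p-values here reflect variation among libraries only, which can be technical. Totals ranged from 56740720 to 64490097 counts.

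The material is named as islet macrophages, and the protocol freezes isolated islets and then extracts RNA; how macrophages were separated is not stated in the sources used here. Ins2, an insulin gene, stood at 9771 and 9891 CPM with NCD and 8307 and 8729.8 CPM with HFD (CPM, counts relative to the size of the library, scaled between libraries by TMM). Adgre1, which encodes the macrophage antigen F4/80, stood at 29.5 and 31.9 CPM with NCD and 26.4 and 24.3 CPM with HFD, and all 18 macrophage markers had counts. Endocrine transcripts were thus present at high levels in every library. In such bulk RNA, fewer cells of a type and less RNA per cell cannot be told apart.

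Glp1r, Gipr, Gcgr and Gpr119 couple to the stimulatory G protein Gs, which raises cyclic AMP and in beta cells amplifies glucose-driven insulin release. Ffar1 and Chrm3 couple to Gq, which mobilizes calcium, and carry the signals of fatty acids and of acetylcholine, while Sstr3 and Adra2a couple to inhibitory Gi and Go proteins, by which somatostatin and noradrenaline restrain secretion. Prlr and Ghr are class I cytokine receptors that signal through the kinase JAK2 and the transcription factor STAT5, a route known for the growth of beta cells in pregnancy.

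RefSeq (build GRCm38.p6) gave windows of 250 bases before annotated transcript starts for 9 of the 10 genes, 13 windows in all. Shown are stretches upstream of Glp1r and Gcgr, the genes with the largest falls, and of the second annotated Prlr start, the only window with a STAT match. Each is on the plus strand, and those of Glp1r and Gcgr end where the first annotated exon begins. Capitals mark CG dinucleotides in Glp1r and Gcgr and the STAT match in Prlr. A short stretch just after the second Prlr start was in 0 of the gene's GENCODE transcripts, against 11 for the third start. For the second Sstr3 start the number was also 0, against 1 for the first.
Glp1r, chr17:30901617-30901816: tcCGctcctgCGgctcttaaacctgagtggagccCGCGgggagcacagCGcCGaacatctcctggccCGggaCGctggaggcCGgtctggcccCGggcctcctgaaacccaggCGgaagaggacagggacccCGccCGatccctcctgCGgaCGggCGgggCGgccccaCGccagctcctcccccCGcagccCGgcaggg
Gcgr, chr11:120530477-120530698: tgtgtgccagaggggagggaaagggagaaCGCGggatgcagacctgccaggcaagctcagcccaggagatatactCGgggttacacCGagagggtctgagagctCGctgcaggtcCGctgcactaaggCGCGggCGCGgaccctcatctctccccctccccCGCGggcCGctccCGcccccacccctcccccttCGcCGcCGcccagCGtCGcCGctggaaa
Prlr, chr15:10223656-10223905: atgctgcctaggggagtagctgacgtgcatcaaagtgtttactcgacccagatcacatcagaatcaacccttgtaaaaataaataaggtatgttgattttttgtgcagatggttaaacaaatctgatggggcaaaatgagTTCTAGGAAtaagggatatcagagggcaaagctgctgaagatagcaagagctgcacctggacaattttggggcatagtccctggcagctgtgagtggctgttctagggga

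The full windows of Glp1r and Gcgr consisted of G and C to 73.2% and 70.4%, against a median of 52.4% over 32851 windows of all genes. They held 26 and 24 CG dinucleotides, where the median window held 6. Also above that median were Adra2a (22), both Ghr windows (17 and 8), Chrm3 (10) and Ffar1 (8). The first windows of Sstr3 and Prlr were at it (6 each), and Gpr119 (3), the other two Prlr windows (2 each) and the second Sstr3 window (1) were below it. On both strands, the cyclic AMP response element TGACGTCA was in 0 of the 13 windows and in 1.55% of all windows. The STAT motif TTCNNNGAA was in 1 of the 13 and in 7.02% of all. The homeobox core TAATTA was in 0 of the 13 and in 4.84% of all, and the TATA box TATAAA was in 2, those of Adra2a and the second Ghr start, and in 12.37% of all. The windows of Adra2a and of the second Ghr start lie inside the gene spans given below. Over the windows of tested genes the shares were 2.34% for the cyclic AMP response element, 5.95% for STAT, 2.84% for the homeobox core and 7.48% for the TATA box. A match describes letters only, and which starts these libraries used was not analysed here.

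Of the 10 receptors, 9 fell with HFD (edgeR quasi-likelihood test, adjusted p under 0.05) and none rose. Over all tested genes 14.5% were lower, 17.9% higher and 32.4% called in either direction. Among the 14013 protein-coding genes of at least 1 mean CPM, to which the receptors belong, 20.8% were lower. In the same 9 genes both HFD libraries lay below both NCD libraries, as in 33.2% of all tested genes; in none did they lie above, as in 34.5%. The exception was Gpr119. The median log2 change of the receptors was -0.68, against 0.0026 over all tested genes. The falls ran from 1.45 on the log2 scale for Gcgr to 0.40 for Gipr and Ffar1, and 2 receptors, Gcgr and Glp1r, fell at least 2-fold, as 1.33% of all tested genes did.

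**Figure D1:**
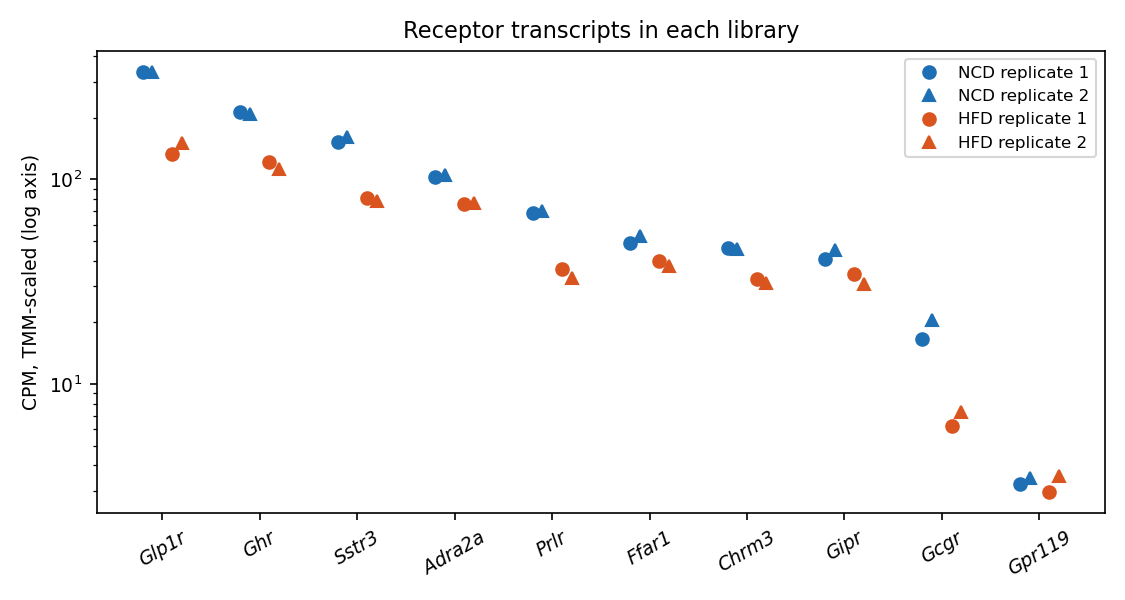
Level of each receptor transcript in TMM-scaled CPM (log axis) in the 4 libraries, ordered by the NCD mean; circles are replicate 1 and triangles replicate 2, blue for NCD and orange for HFD. The diets are apart in 9 genes and overlap in Gpr119.

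Glp1r binds the gut incretin GLP-1 and is the target of the GLP-1 drugs used in diabetes. It lies on chromosome 17 (30901817 to 30940791, plus strand; gene positions are those of GENCODE on GRCm38). Its level was 334 and 336 CPM with NCD and 133 and 151 CPM with HFD. Both HFD libraries were far below NCD and differed from each other more than the NCD libraries did. The mean went from 335 ± 1.18 to 142 ± 12.4 CPM (SD, n = 2 libraries per diet, as for all means here), a fall of 57.6% (log2 change -1.24, SE 0.07, edgeR adjusted p = 0.000237).

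Gcgr, the receptor of glucagon, had the largest fall of the 10. It lies on chromosome 11 (120530699 to 120538986, plus strand). It was measured at 16.6 and 20.4 CPM with NCD and 6.26 and 7.29 CPM with HFD. The diets did not overlap, and the NCD libraries spread more than the HFD libraries. The mean went from 18.5 ± 2.73 to 6.78 ± 0.726 CPM (log2 change -1.45, SE 0.16, edgeR adjusted p = 0.00211). Glp1r counts per Gcgr count were 20.2 and 16.4 with NCD and 21.3 and 20.7 with HFD. Both HFD libraries lay above both NCD libraries in this ratio, and the NCD libraries differed from each other by more than the diet means did.

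Gipr, the receptor of the incretin GIP, lies on chromosome 7 (19156061 to 19166127, minus strand). Its level was 40.9 and 45.0 CPM with NCD and 34.3 and 30.9 CPM with HFD. The diets did not overlap, and the replicates of each differed by a few CPM. The mean went from 43.0 ± 2.87 to 32.6 ± 2.40 CPM (log2 change -0.40, SE 0.09, edgeR adjusted p = 0.0237). Without NCD replicate 2 or HFD replicate 2 the adjusted p was 0.0924 and 0.1000, and with a replicate block it was 0.0547. Glp1r counts per Gipr count, a ratio that needs no scaling between libraries, were 8.16 and 7.46 with NCD and 3.89 and 4.88 with HFD. The ratio was lower in both HFD libraries than in both NCD libraries. However, with 2 libraries against 2 an exact two-sided permutation test cannot go below p = 0.333. That limit holds for the other count ratios given here as well.

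Ffar1, the receptor of long-chain fatty acids on beta cells, lies on chromosome 7 (30857390 to 30861564, minus strand). It stood at 48.9 and 53.0 CPM with NCD and 39.8 and 37.6 CPM with HFD. The HFD libraries were both below NCD by a modest margin. The mean went from 51.0 ± 2.90 to 38.7 ± 1.60 CPM (log2 change -0.40, SE 0.08, edgeR adjusted p = 0.0136), and the adjusted p was 0.0575 without NCD replicate 2 and 0.0658 without HFD replicate 2. Gpr119, which binds oleoylethanolamide and related lipids, lies on the X chromosome (48667979 to 48674478, minus strand). It was the least abundant, at 3.26 and 3.49 CPM with NCD and 2.95 and 3.55 CPM with HFD. Its diets overlapped, and the difference did not pass the test (log2 change -0.05, SE 0.21, edgeR adjusted p = 0.881). Its 183 to 217 counts per library are the fewest of the 10. Low counts were 1.53 to 1.60 times as frequent at multiples of 4 as at neighbouring numbers in these libraries, so a count may not stand for 1 fragment.

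Sstr3, a somatostatin receptor that localizes to primary cilia, lies on chromosome 15 (78537008 to 78544685, minus strand). It stood at 153 and 161 CPM with NCD and 81.3 and 78.1 CPM with HFD. Replicates lay close together within each diet, and the mean went from 157 ± 5.46 to 79.7 ± 2.30 CPM (log2 change -0.98, SE 0.06, edgeR adjusted p = 0.000262). Adra2a, the receptor by which noradrenaline suppresses insulin release, lies on chromosome 19 (54044151 to 54048982, plus strand). Its level was 103 and 106 CPM with NCD and 75.5 and 76.5 CPM with HFD. The diets were clearly apart, with a smaller step than for Sstr3, and the mean went from 104 ± 1.85 to 76.0 ± 0.708 CPM (log2 change -0.46, SE 0.05, edgeR adjusted p = 0.00247). Sstr3 counts per Adra2a count were 1.49 and 1.52 with NCD and 1.08 and 1.02 with HFD, lower in both HFD libraries.

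Chrm3, by which acetylcholine raises insulin release and also enzyme secretion of acinar cells, lies on chromosome 13 (9875486 to 10360847, minus strand). Its level was 46.2 and 45.6 CPM with NCD and 32.7 and 31.1 CPM with HFD. Replicates were tight in both diets, and the mean went from 45.9 ± 0.431 to 31.9 ± 1.14 CPM (log2 change -0.52, SE 0.07, edgeR adjusted p = 0.00395). All 12 acinar markers rose in these libraries, with a summed level of 454 and 488 CPM with NCD and 3233 and 3534 CPM with HFD (list sums are without TMM scaling). Among them Ptf1a, at 0 CPM in both NCD libraries, and Rbpjl, at 0.0620 and 0 CPM, entered the test through their HFD counts. For these genes only a rise could be found. The part of acinar RNA in the Chrm3 values was not tested.

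Prlr, the receptor of prolactin and placental lactogens, lies on chromosome 15 (10177238 to 10349180, plus strand). It stood at 68.7 and 70.1 CPM with NCD and 36.7 and 32.9 CPM with HFD. The diets were well apart, and the mean went from 69.4 ± 1.01 to 34.8 ± 2.65 CPM (log2 change -0.996, SE 0.08, edgeR adjusted p = 0.000638). Of the 10 genes Prlr alone shared annotated exon bases with another gene, Gm21973, over 1.32% of its exons. Ghr, the growth hormone receptor, lies on the same chromosome (3317760 to 3583492, minus strand). It stood at 212 and 209 CPM with NCD and 122 and 113 CPM with HFD. Both HFD libraries were again far below NCD, and the mean went from 210.5 ± 2.63 to 117 ± 6.49 CPM (log2 change -0.84, SE 0.06, edgeR adjusted p = 0.000419). Prlr counts per Ghr count were 0.323 and 0.336 with NCD and 0.300 and 0.292 with HFD, lower in both HFD libraries.

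Per kb of exon, the order of the receptors was nearly the same in both diets. Glp1r led, at a CPM per kb of 57.6 ± 0.203 with NCD and 24.4 ± 2.13 with HFD, followed by Sstr3 at 36.3 ± 1.26 with NCD and 18.5 ± 0.533 with HFD. Ghr stood above Adra2a with NCD and below it with HFD, without overlap of the libraries in either diet, at 23.2 ± 0.290 with NCD and 12.97 ± 0.717 with HFD for Ghr and 21.6 ± 0.382 with NCD and 15.7 ± 0.146 with HFD for Adra2a. Gipr (12.3 ± 0.825 with NCD and 9.36 ± 0.690 with HFD) and Ffar1 (12.2 ± 0.695 with NCD and 9.27 ± 0.383 with HFD) did not differ beyond their spread in either diet. Chrm3 (7.34 ± 0.0690 with NCD and 5.10 ± 0.183 with HFD) and Gcgr (7.06 ± 1.04 with NCD and 2.59 ± 0.277 with HFD) overlapped with NCD but not with HFD. Prlr, at 4.52 ± 0.0660 with NCD and 2.27 ± 0.173 with HFD, and Gpr119, at 1.49 ± 0.0729 with NCD and 1.43 ± 0.185 with HFD, were lowest. Length is that of all annotated exons, 15339 bases for Prlr, and not of the isoforms present.

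Among the somatostatin receptors Sstr1 to Sstr5, Sstr3 made up 91.2% and 92.6% with NCD and 82.1% and 84.1% with HFD of the summed CPM per kb. Sstr1 (log2 change -0.32, edgeR adjusted p = 0.362) and Sstr2 (log2 change 0.54, edgeR adjusted p = 0.126) did not pass the test. Nor did Sstr5, which had 20 to 24 counts per library (log2 change 0.03, edgeR adjusted p = 0.976). Glp1r made up 75.9% and 73.5% with NCD and 63.3% and 67.5% with HFD of its family of glucagon-related receptors, and Gipr 15.5% and 16.4% with NCD and 27.2% and 23.1% with HFD. Their relatives Glp2r, a receptor of gut growth, and Sctr, the secretin receptor, rose but stayed low, Glp2r from 0.0945 ± 0.0199 to 2.03 ± 0.468 CPM and Sctr from 0.237 ± 0.0162 to 1.20 ± 0.127 CPM (edgeR adjusted p = 0.00163 and 0.0120). Glp2r had only 7 and 5 counts with NCD and entered the test through its 146 and 96 counts with HFD, so only a rise could be found. Sctr had 16 and 14 counts with NCD, close to the floor given below.

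Adra2a accounted for 99.9% to 100% of the summed level of Adra2a, Adra2b and Adra2c, with at most 8 counts of Adra2b and 0 of Adra2c in any library. A floor of 12 counts, that is 3 steps of 4, is 0.186 to 0.212 CPM. Chrm3 made up 64.9% and 60.0% with NCD and 62.8% and 59.0% with HFD of the muscarinic receptors, and Chrm4 most of the rest. Ffar1 made up 38.0% and 41.1% with NCD and 38.3% and 36.2% with HFD of the free fatty acid receptors. Ffar2, a receptor of short-chain fatty acids, fell (log2 change -0.51, edgeR adjusted p = 0.0123), with an adjusted p of 0.0629 without HFD replicate 1 and just above 0.05 without NCD replicate 2, and Ffar4, another long-chain fatty acid receptor, did not pass (log2 change -0.06, edgeR adjusted p = 0.773).

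**Figure D2:**
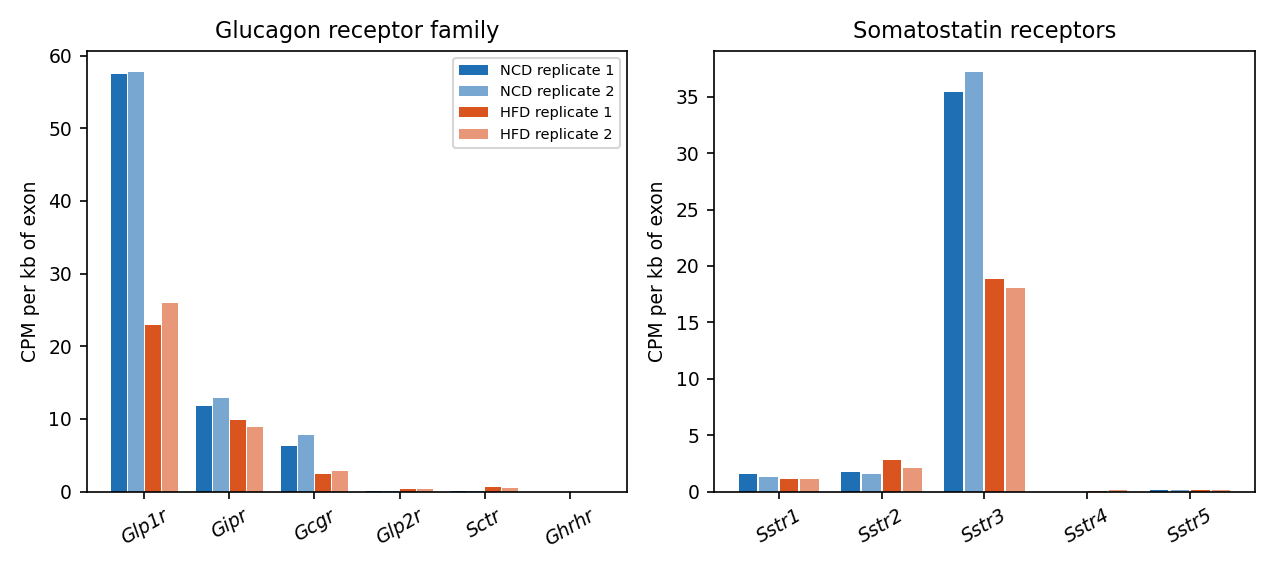
Level per kb of exon (bars from 0) of the glucagon receptor family (left) and the somatostatin receptors (right) in each library, blue for NCD and orange for HFD. Glp1r and Sstr3 are the tallest bars of their families in all 4 libraries and are lower in both HFD libraries.

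Beta cells, a known site of most of these receptors, showed lower marker levels as well. Of 20 beta cell markers 17 fell and 3 (Ins1, Slc2a2 and Npy) did not pass, with a median log2 change of -0.74 and a summed level of 20418 and 20945 CPM with NCD and 15369.8 and 15834 CPM with HFD. No beta cell marker was at 0 in all libraries. Ins2 fell by 0.21 on the log2 scale (edgeR adjusted p = 0.00466), and Ins1, at 1502 and 1519.9 CPM with NCD and 1529.8 and 1600.3 CPM with HFD, did not pass (edgeR adjusted p = 0.320). Of the markers, 12 that encode neither insulin nor amylin served as a reference, and their log2 changes ran from -1.44 for Ucn3, a peptide of mature beta cells, to -0.01 for Slc2a2, the glucose transporter GLUT2. Every receptor but Gcgr lay within that range.

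Scaling the libraries so that the geometric mean of those 12 markers was level shifted the log2 changes of all genes up by 0.81 in the median, and the receptors split. This takes the markers as fixed, so the errors leave out the markers' own spread. Glp1r remained lower (-0.43, SE 0.08, adjusted p = 0.00505 in edgeR), as did Gcgr (-0.64, SE 0.17, adjusted p = 0.0173) and Sstr3 (-0.17, SE 0.06, adjusted p = 0.0411). Gipr was higher (0.41, SE 0.09, adjusted p = 0.00718), as were Ffar1 (0.41, SE 0.07, adjusted p = 0.00415), Adra2a (0.35, SE 0.06, adjusted p = 0.00341), Chrm3 (0.28, SE 0.07, adjusted p = 0.0159) and Gpr119 (0.76, SE 0.22, adjusted p = 0.0272). Prlr (-0.19, SE 0.07, adjusted p = 0.0649) and Ghr (-0.04, SE 0.06, adjusted p = 0.604) did not pass. With this scaling 14099 of all genes were higher and 135 lower, against 3860 and 3123 with TMM.

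In single libraries, the log2 ratio of Glp1r to the markers' geometric mean was 1.23 and 1.22 with NCD and 0.68 and 0.90 with HFD. For Gcgr it was -3.10 and -2.82 with NCD and -3.73 and -3.47 with HFD. Both receptors were lower against the markers in each HFD library. For Gipr the log2 ratio was -1.80 and -1.68 with NCD and -1.28 and -1.38 with HFD, the opposite direction. For Ghr it was 0.58 and 0.53 with NCD and 0.55 and 0.49 with HFD, and the diets overlapped.

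**Figure D3:**
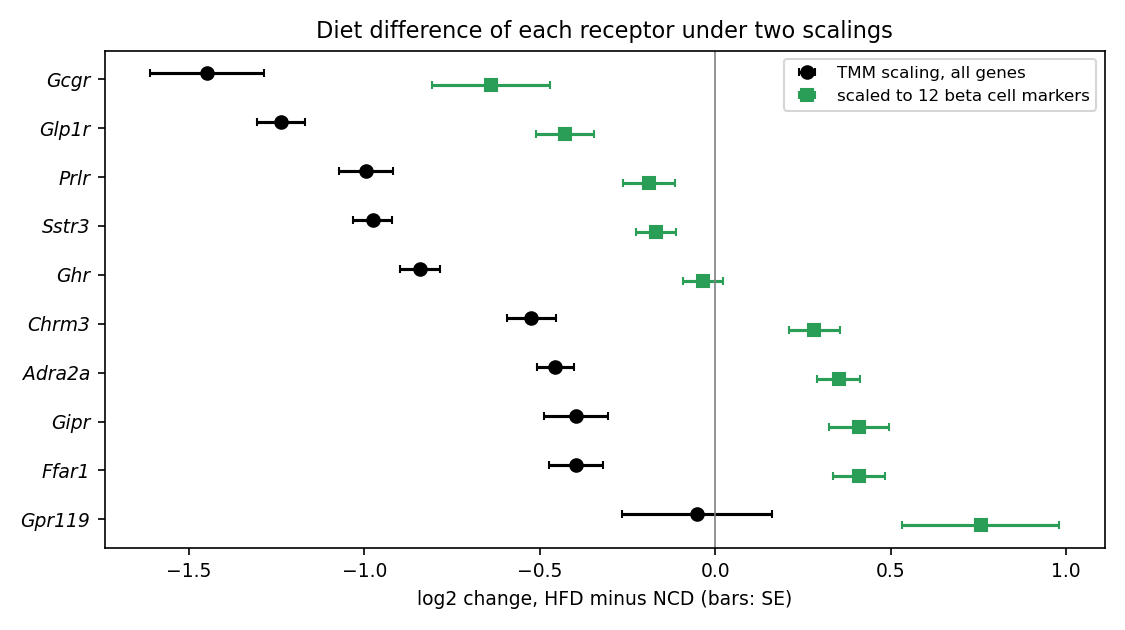
Log2 change between diets (HFD minus NCD, bars are SE) of each receptor with TMM scaling over all genes (black circles) and with libraries scaled to 12 beta cell markers (green squares). With TMM 9 receptors lie left of 0 by more than their SE; scaled to the markers, Gcgr, Glp1r, Sstr3 and Prlr stay left of 0 by more than their SE, Ghr lies within its SE of 0, and Chrm3, Adra2a, Gipr, Ffar1 and Gpr119 lie right of it.

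Markers of other cell types also differed between the diets. Of 13 alpha cell markers 5 rose and 3 fell (3 rose without HFD replicate 2), and of 9 tested delta and PP cell markers 2 rose and 4 fell (1 rose without either NCD library or HFD replicate 2). Of 12 fibroblast and stellate markers 10 rose and 1 fell, with a sum of 263 and 285 CPM with NCD and 1624 and 1786 CPM with HFD. Of 13 B and T cell markers 12 rose, with a sum of 560.3 and 558 CPM with NCD and 3725 and 3760.0 CPM with HFD. Of those that rose, Cd3d had 24 and 9 counts with NCD and Cd8a had 14 and 9. Both entered the test through their HFD counts, so for them only a rise could be found. Of 18 macrophage markers 5 rose and 9 fell, with a sum of 1241 and 1204 CPM with NCD and 1160.1 and 1166 CPM with HFD; 3 rose without any 1 of the libraries, and 5 fell without NCD replicate 1 or HFD replicate 1. Of 8 tested smooth muscle and pericyte markers 6 rose, with a sum of 230.5 and 236 CPM with NCD and 418 and 406 CPM with HFD. The part of these cell types in the values of the receptors and of the signalling genes was not tested.

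Ligands of the receptors and the enzymes that make or destroy them moved in both directions. Of 8 tested genes 2 rose and 4 fell, with a median log2 change of -0.24. Gcg, which encodes glucagon and GLP-1, rose and stood at 9032 and 9472 CPM with NCD and 12803 and 13461 CPM with HFD (log2 change 0.51, edgeR adjusted p = 0.000452). Sst, the precursor of the ligand of Sstr3, fell and stood at 3816 and 4004 CPM with NCD and 3222 and 3382 CPM with HFD (log2 change -0.24, edgeR adjusted p = 0.00630). Pcsk1, a convertase that processes proinsulin and can yield GLP-1 from proglucagon, fell from 175 ± 1.20 to 84.1 ± 3.52 CPM (edgeR adjusted p = 0.000195). Dpp4, the protease that inactivates GLP-1 and GIP, fell from 51.8 ± 2.82 to 40.4 ± 2.78 CPM (edgeR adjusted p = 0.0247; 0.0963 without NCD replicate 2, 0.105 without HFD replicate 2 and 0.0551 with a replicate block).

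Of 23 tested G protein subunits 3 rose and 7 fell, with a median log2 change of -0.07. Gnai2, an inhibitory alpha subunit, fell from 967 ± 0.578 to 646 ± 19.0 CPM (edgeR adjusted p = 0.000329). Gnas, which encodes the Gs subunit used by Glp1r, Gipr and Gcgr, went from 731 ± 2.02 to 720.3 ± 4.63 CPM and did not pass (edgeR adjusted p = 0.674). Of 24 adenylyl cyclases and phosphodiesterases 10 rose and 3 fell, with a median of 0.35. The phosphodiesterase Pde4b, which breaks down cyclic AMP, rose and Pde3b, an enzyme of the same function in beta cells, fell (log2 change 0.85, edgeR adjusted p = 0.000262 and log2 change -0.47, edgeR adjusted p = 0.00174). The cyclase Adcy5 rose (log2 change 1.27, edgeR adjusted p = 0.00343), and Adcy8, a calcium-sensitive cyclase, did not pass (log2 change -0.15, edgeR adjusted p = 0.641).

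Of 19 cyclic AMP effectors 3 rose and 5 fell, with a median log2 change of -0.02, and 1 rose without NCD replicate 1. Prkar1b, a regulatory subunit of protein kinase A, fell (log2 change -0.66, edgeR adjusted p = 0.000915). Rapgef4, the exchange factor Epac2, did not pass and spread widely, at 61.3 and 69.7 CPM with NCD and 54.4 and 75.1 CPM with HFD (log2 change -0.02, edgeR adjusted p = 0.954). Of 14 genes that cyclic AMP can induce 10 rose and none fell, with a median of 0.75. Among them, the early response factor Nr4a1 rose from 45.8 ± 0.625 to 138 ± 17.0 CPM and the phosphatase Dusp1 from 77.7 ± 6.95 to 174 ± 7.39 CPM (edgeR adjusted p = 0.000295 and 0.000419). Of 14 Gq effectors 2 rose and 5 fell, with a median of -0.08; none rose without NCD replicate 2, HFD replicate 1 or HFD replicate 2. The kinase Prkcb and the cation channel Trpm5, which is also a beta cell marker, fell (log2 change -0.82, edgeR adjusted p = 0.000420 and log2 change -1.22, edgeR adjusted p = 0.000673).

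Of 23 arrestins, receptor kinases and RGS proteins, which end receptor signals, 10 rose and 4 fell, with a median log2 change of 0.34. Of those that rose, Rgs5 (log2 change 0.71, edgeR adjusted p = 0.000738) is also a marker of smooth muscle and pericytes. The number that fell was 2 without either NCD library or HFD replicate 2. Arrb1, a beta-arrestin, rose from 16.2 ± 0.677 to 37.7 ± 2.18 CPM (edgeR adjusted p = 0.000555). Rgs4 and Rgs16, which speed the shut-off of G proteins, rose (log2 change 0.62, edgeR adjusted p = 0.000508 and log2 change 1.13, edgeR adjusted p = 0.00116).

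Of 17 genes of the JAK2 and STAT5 pathway 11 rose and 1, the phosphatase Ptpn11, fell, with a median log2 change of 0.39. Without HFD replicate 1 the number that rose was 7, and without HFD replicate 2 the number that fell was 2. Jak2 rose from 101 ± 3.25 to 158 ± 1.45 CPM, and Cish, a feedback inhibitor that STAT5 induces, from 10.6 ± 0.284 to 20.3 ± 1.31 CPM (edgeR adjusted p = 0.000673 and 0.00256). Stat5a rose (log2 change 0.63, edgeR adjusted p = 0.00276) and Stat5b did not pass (log2 change -0.02, edgeR adjusted p = 0.805). Socs2, another feedback inhibitor, rose (log2 change 0.49, edgeR adjusted p = 0.0340), with an adjusted p of 0.113 without HFD replicate 1, 0.109 without NCD replicate 1, 0.0874 without NCD replicate 2 and 0.0561 with a replicate block. Of 11 tested islet genes known to rise with prolactin 1 rose and 5 fell, with a median of -0.29; 3 fell without HFD replicate 1 or HFD replicate 2, and none rose without these or NCD replicate 2. Ccnd2, a cyclin of beta cell growth, fell from 535 ± 5.54 to 367 ± 1.49 CPM (edgeR adjusted p = 0.000393).

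**Figure D4:**
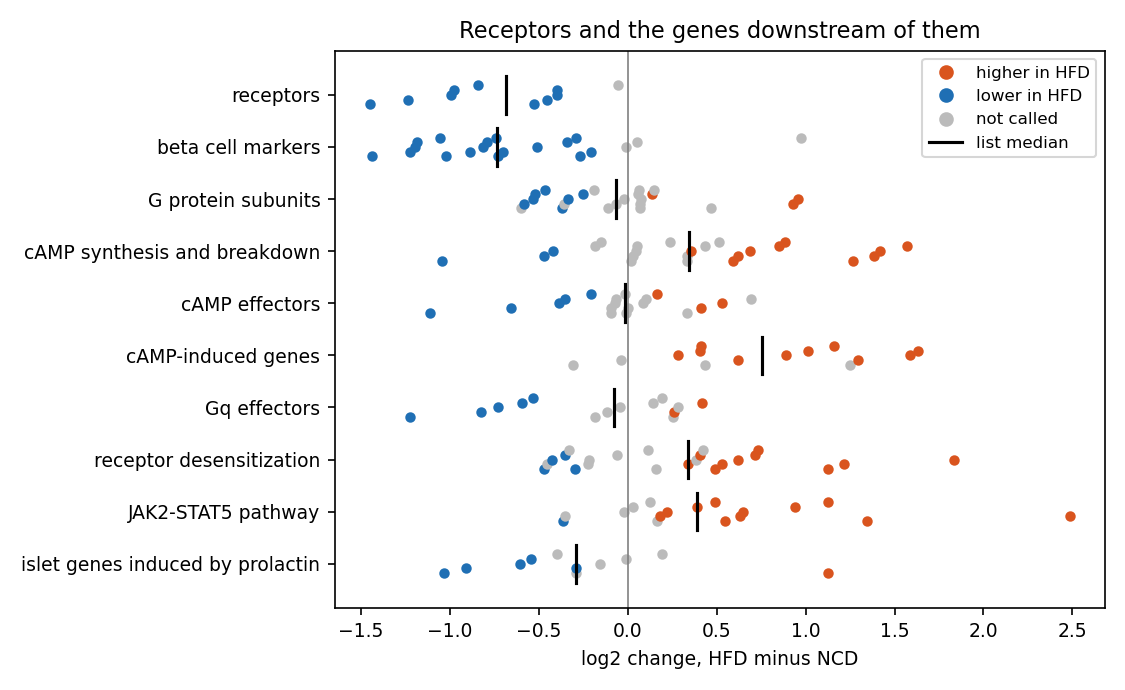
Log2 change between diets (HFD minus NCD) of each tested gene among the receptors, the beta cell markers and the lists downstream of the receptors; orange and blue points passed the test as higher and lower with HFD, grey points did not, and black bars are medians. The medians are -0.68 for the receptors and -0.74 for the beta cell markers and lie between -0.29 and 0.75 in the downstream lists.

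Other receptors of the same kinds did not share a direction. Of 12 tested class B hormone receptors and accessory proteins 5 rose and 1 fell (2 without NCD replicate 2), with a median log2 change of 0.36. The one that fell, Vipr2, a receptor of vasoactive intestinal peptide, went from 27.9 ± 0.139 to 11.1 ± 0.858 CPM (edgeR adjusted p = 0.000673), while Vipr1 did not pass (log2 change -0.22, edgeR adjusted p = 0.0727). Adcyap1r1, the receptor of the neuropeptide PACAP, rose from 0.846 ± 0.122 to 7.10 ± 1.67 CPM (edgeR adjusted p = 0.000985). Of 14 other nutrient and metabolite receptors 4 rose and 3 fell; 2 rose without NCD replicate 2 or HFD replicate 2, and 1 fell without HFD replicate 1. The calcium-sensing receptor Casr was among those that fell (log2 change -0.58, edgeR adjusted p = 0.00617).

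Of 10 other somatostatin and inhibitory peptide receptors 1 rose and 2, the galanin receptors Galr1 and Galr3, fell; none fell without NCD replicate 1, and 1 fell without HFD replicate 1 or HFD replicate 2. Of 17 muscarinic, serotonin, purine and GABA receptors 3 rose and 4 fell (2 fell without NCD replicate 2 or HFD replicate 2). Of those that rose, Htr7 stood at 0 and 0.0643 CPM with NCD and entered the test through its HFD counts, so only a rise could be found. Gabbr2, a subunit of the GABA-B receptor, fell from 104 ± 3.52 to 45.0 ± 0.486 CPM (log2 change -1.21, edgeR adjusted p = 0.000178). Of 10 other cytokine and growth factor receptors 2 rose and 3 fell; 1 rose without NCD replicate 1, HFD replicate 1 or HFD replicate 2, and 1 fell without HFD replicate 1 or HFD replicate 2. Osmr, the oncostatin M receptor, rose from 16.6 ± 1.09 to 93.4 ± 0.626 CPM, and Igf1r, the receptor of a growth factor that growth hormone induces, fell from 694 ± 28.3 to 405 ± 0.539 CPM (edgeR adjusted p = 5.44e-05 and 0.000228).

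By Euclidean distance of mean-centred log2 CPM over the 4 libraries, the nearest of 14012 protein-coding genes was Jph3 for Glp1r (0.0175), Cdh8 for Sstr3 (0.0240), Grin1 for Prlr (0.0346) and Rsph4a for Gcgr (0.0989). This describes 4 points that share the split between diets.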

How the data were processed

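The authors deposited whole-number counts per Ensembl gene, 1 table per library. The submitters' processing notes name HISAT, featureCounts 1.5.0, DESeq 1.8.3 and build GRCm38, without roles; settings for strand and multi-mapping reads were not stated, and the kit was stranded per the labels' protocols. Symbols, positions and exon lengths came from GENCODE M21, where 55154 of 55421 identifiers had a symbol. Genes passing filterByExpr (minimum count 10) were scaled by TMM and tested in R 4.3.3 with edgeR 4.0.16 (quasi-likelihood F test, diet only, Benjamini-Hochberg over 21563 genes, threshold 0.05). SE is the size of the log2 change divided by the square root of F. The common biological coefficient of variation was 19.1%. Replicates differed beyond counting noise (chi-square per degree of freedom 33.5 for NCD and 20.4 for HFD). The test was tried on simulated data.

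The receptors and gene lists were chosen with earlier results of these data known. Named were all 10 receptors, preset ligands, paralogs and signalling genes, and among each pathway list's up to 4 called genes with the smallest p and a mean of at least 1 CPM. Chrm4, Glp2r, Sctr, Ucn3, Slc2a2, Npy, Ptf1a, Rbpjl, Htr7, Cd3d and Cd8a were chosen after their values were seen. Alternatives used DESeq2 1.42.0, limma 3.58.1, other filters and scalings, a replicate block and left-out libraries. A further receptor list is not reported here.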

Additional observations from a re-analysis of the deposited data

How the results depend on the processing

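The number of receptors that fell was 9 with DESeq2's size factors, the DESeq2 Wald test, limma-voom, no filter, genes of at least 5 CPM (where Gpr119 was not tested), counts divided by 4, and library sizes that left out endocrine, acinar and dominant genes. None rose in these fits, in which every receptor's log2 change was negative. Leaving out 1 library gave 7 to 9 receptors lower, and over all genes 2015 to 2174 lower (2015 without HFD replicate 1) and 2710 to 3224 higher; a diet's lone library was taken to vary as the others do. Requiring at least 2-fold left 2 receptors lower, and 287 genes lower and 2160 higher over all genes.

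Scaled to beta cell markers, 3 receptors were lower and 5 higher; Gipr turned to 0.41, Ffar1 to 0.41, Gpr119 to 0.76, Adra2a to 0.35 and Chrm3 to 0.28 on the log2 scale. The upward shift common to all genes, 0.81 in the median, follows from the construction of this scaling, since the markers fell. Which receptors ended above or below 0 also depends on their own changes. Log2 changes near 0 also turned sign, with none past the test, among genes of at least 5 CPM (Stat5b 0.0300, Gnas 0.0299, Rapgef4 0.0351) and with 1 library left out, where the ranges were -0.195 to 0.0814 for Gpr119, -0.0316 to 0.0901 for Sstr5, -0.185 to 0.0567 for Ffar4, -0.0558 to 0.00708 for Stat5b and -0.270 to 0.206 for Rapgef4; the cause was not tested. With a replicate block 8 receptors were lower, Gipr missing at an adjusted p of 0.0547 in edgeR, and 2583 genes were lower and 3252 higher. The deviations of same-numbered libraries had a correlation of 0.0021 across genes, so no pairing by replicate number was seen. With 2 libraries per diet this cannot settle how the libraries were made. Of the 10 receptors, Gpr119 had the fewest counts.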
